A study of Mus musculus with 4 samples.

Results

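Sept9, Gse1, Myh9, Pakap, Tbc1d22a, Sfi1 and Fgfr2 are among the genes with the most regions of differential H3K9 acetylation along their length, in a comparison of hippocampal HT22 cells of the mouse at 2 levels of choline. They are 7 of 21938 protein-coding genes in the annotation, and they were chosen by that number, as genes whose span from first to last annotated base was overlapped by at least 30 or so regions assigned to 70 µM choline. Other genes that pass the same number but are not among the 7 are named below. Together they held 280 of the 45495 regions assigned to 70 µM and 2 of the 360 assigned to 5 µM. A count of regions inside one of these genes is therefore the value that selected it and is given as a description, with no test.

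H3K9ac was mapped by chromatin immunoprecipitation and sequencing in HT22 cells, an immortalised mouse cell line of hippocampal neuronal origin that was labelled as hippocampal neuron and kept in high-glucose medium with serum. All cells received choline chloride for 48 h, at 5 µM in the control group and at 70 µM in the supplemented group, and both groups were of the same line. The series has 4 libraries, 2 from input DNA and 2 from H3K9ac ChIP DNA, so each choline level had at most 1 ChIP library. The choline level of a given library is not in its labels, and no spread between replicates could be measured. The deposited result is 1 list of 45855 regions, each named as particular to condition 1 (360) or condition 2 (45495), read here as 5 µM and 70 µM from the order in which the list names the levels. Regions common to both levels are not in the list, so it shows where a difference was called and never how much H3K9ac a gene carried. Each region has a score set by the authors, which is used below only to order regions within the list, and the read depth behind it is unknown. All 45855 regions lay on chromosomes 1 to 19, X and Y. The labelled cell type could not be checked by presence or absence of marks. At least 1 region at 70 µM lay in 6 of 10 neuronal and 3 of 5 astrocyte marker genes. The same held for 5 of 5 fibroblast and 2 of 5 microglial marker genes, where 51.9% of all protein-coding genes had one. The neuronal markers ran from 12 regions in Rbfox3 to 0 in Snap25, Stmn2, Nefl and Nefm. The astrocyte markers Gfap and Aqp4 and the microglial markers P2ry12, Tmem119 and Csf1r also had 0.

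H3K9ac is the acetylation of lysine 9 on the tail of histone H3, set by acetyltransferases and removed by histone deacetylases. It is known chiefly from nucleosomes beside active transcription starts, and it also occurs at enhancers, many of which lie in introns. Long genes of the cytoskeleton and of signalling often carry several promoters, each giving a protein with its own N terminus, and long introns that hold such enhancers. Choline is a nutrient used for phospholipids, for acetylcholine and, through betaine, for methyl groups.

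The sequences of the highest-scoring region outside exons in each of 6 genes are given as examples. All are intronic by this choice, and they do not stand for all regions of these genes. They are printed from the plus strand of mm10 (RefSeq GRCm38.p6), 5′ to 3′, with each CpG in capitals.
Sept9, intron 3 of transcript Sept9-202, chr11:117306583-117306758: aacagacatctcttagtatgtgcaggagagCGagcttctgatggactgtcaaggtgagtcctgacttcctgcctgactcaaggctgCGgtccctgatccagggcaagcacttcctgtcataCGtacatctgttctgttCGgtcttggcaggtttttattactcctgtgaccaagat
Gse1, intron 1, chr8:120241418-120241604: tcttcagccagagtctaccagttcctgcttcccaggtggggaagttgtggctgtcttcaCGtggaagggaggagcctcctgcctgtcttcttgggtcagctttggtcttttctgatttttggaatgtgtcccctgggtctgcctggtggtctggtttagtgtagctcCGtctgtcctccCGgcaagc
Myh9, intron 1, chr15:77814429-77814666: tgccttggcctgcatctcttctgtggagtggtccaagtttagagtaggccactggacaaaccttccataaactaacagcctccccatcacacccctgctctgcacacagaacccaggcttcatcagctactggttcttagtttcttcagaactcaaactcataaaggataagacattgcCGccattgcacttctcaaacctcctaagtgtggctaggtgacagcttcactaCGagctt
Pakap, intron near the 5′ end, upstream of transcript Pakap-203, chr4:57569830-57569966: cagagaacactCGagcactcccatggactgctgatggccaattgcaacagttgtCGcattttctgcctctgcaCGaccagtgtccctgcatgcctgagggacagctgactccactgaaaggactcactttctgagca
Tbc1d22a, intron 8, chr15:86319619-86319819: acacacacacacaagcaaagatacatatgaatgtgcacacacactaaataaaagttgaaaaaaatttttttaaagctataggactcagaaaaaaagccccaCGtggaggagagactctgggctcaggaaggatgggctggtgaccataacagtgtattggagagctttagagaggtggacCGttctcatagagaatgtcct
Fgfr2, intron 2 of transcript Fgfr2-217, chr7:132546506-132546687: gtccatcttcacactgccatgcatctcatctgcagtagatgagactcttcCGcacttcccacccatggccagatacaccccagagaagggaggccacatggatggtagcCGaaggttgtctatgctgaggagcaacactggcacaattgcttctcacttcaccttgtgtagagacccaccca
These 6 regions held 2 to 4 CpG sites each. The Tbc1d22a region opens in a run of CA repeats and had the highest deposited score in any of the 7 genes, 34.42.

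Most regions of Sfi1 share their sequence with an unplaced or unlocalized scaffold of the assembly, which is sequence that belongs to the mouse genome but has no fixed place in it. Those near the 5′ end do not, and the highest-scoring region outside exons without any 32-base word on such a scaffold is shown from the plus strand, in lower case throughout.
Sfi1, intron 1, chr11:3190268-3190567: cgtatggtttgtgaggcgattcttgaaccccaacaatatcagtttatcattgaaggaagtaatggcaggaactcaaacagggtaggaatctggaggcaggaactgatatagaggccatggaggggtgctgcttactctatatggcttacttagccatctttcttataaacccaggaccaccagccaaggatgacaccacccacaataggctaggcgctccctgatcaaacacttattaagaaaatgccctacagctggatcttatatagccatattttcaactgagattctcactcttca
The 300 bases shown are the middle of a region of 380 bp with a score of 5.90.

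By number of regions at 70 µM the genes ranked from 2 to 9 among protein-coding genes. Fgfr2 had 68, Sfi1 42, Sept9 37, Gse1, Myh9 and Pakap 34 each, and Tbc1d22a 31. Only 9 protein-coding genes had 31 or more (0.041%), while 11382 had at least 1 (51.9%), the median was 1 and 10556 had none. The other 2 with as many are long models that take in many other genes: Gm20388 with 429 regions over 4435 kb, which contains the whole of Gse1, and Gm37240 with 42 regions over 1391 kb. Outside protein-coding genes, the lincRNA genes Pvt1 with 43 and Gm26904 with 40 also passed. No protein-coding gene had 30, and the next below were Foxp1 and Zfhx3 with 29, Gramd4 with 28, and Bcar3 and Rbfox2 with 27. Tbc1d22a, the lowest of the 7, thus stood 2 regions above the next lower protein-coding genes.

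Length separated the 7 genes more than number did. Sfi1 spans 61.6 kb and Fgfr2 2961 kb, so the number per 100 kb ran from 68.2 in Sfi1 through 41.7 in Myh9, 22.7 in Sept9, 10.9 in Tbc1d22a, 10.3 in Pakap and 9.63 in Gse1 to 2.30 in Fgfr2. The list as a whole has 1.67 regions at 70 µM per 100 kb of chromosome. Among 5007 protein-coding genes of 50 kb or more, of which 75.8% had at least 1 region, the median was 1.54 per 100 kb and the interquartile range 0.178 to 3.69. Sfi1 and Myh9 were the 2 densest of these, Sept9 ranked 14, and Tbc1d22a, Pakap and Gse1 ranked 166, 193 and 233. Fgfr2 ranked 1896.

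**Figure D1:**
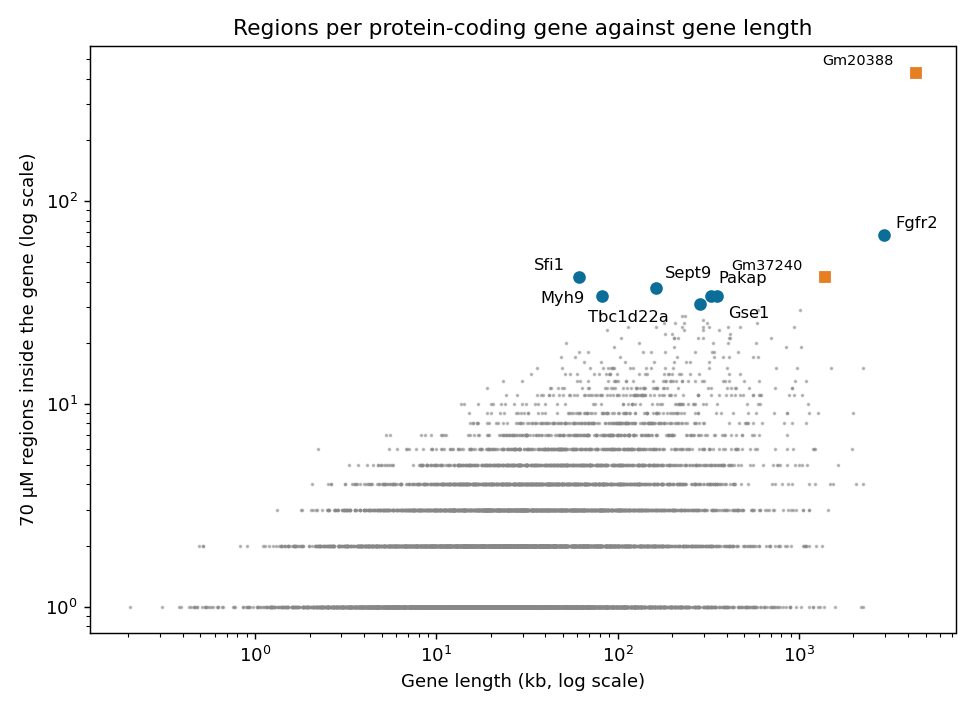
Number of 70 µM regions inside each protein-coding gene that has at least 1 (vertical axis, log scale) against the length of the gene in kb (horizontal axis, log scale). Small grey points are single genes, blue circles the 7 genes described and orange squares the other 2 genes with 31 regions or more. Sfi1 and Myh9 reach 42 and 34 regions at 61.6 and 81.6 kb, while Fgfr2 needs 2961 kb for 68.

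The chromosomes differed too. Chromosomes 11 and 15 had the 2 highest densities of 70 µM regions of the 21 chromosomes, 3.73 and 3.69 per 100 kb, and 4 of the 7 genes lie there (Sept9 and Sfi1 on 11, Myh9 and Tbc1d22a on 15). The density of a gene relative to its own chromosome was 18.3-fold for Sfi1, 11.3-fold for Myh9, 6.10-fold for Sept9, 5.09-fold for Gse1, 4.45-fold for Pakap, 2.96-fold for Tbc1d22a and 1.34-fold for Fgfr2. Number of DNA copies per chromosome and mappability were not measured here, and their part in these densities was not tested. The flanks of equal length are given as a description, since the genes and not their flanks were chosen for a high number. Sfi1 had 10 regions in the upstream flank and 5 in the downstream one beside its 42, Myh9 15 and 4 beside 34, Sept9 17 and 10 beside 37, and Pakap 8 and 20 beside 34. Gse1 had 35 upstream and 20 downstream beside its 34, Tbc1d22a 58 upstream and 3 downstream beside its 31, and Fgfr2 44 upstream and 100 downstream beside its 68, so each of these 3 had a flank with more regions than the gene. Gramd4, which lies in the upstream flank of Tbc1d22a, had 28 regions in 79.9 kb.

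**Figure D2:**
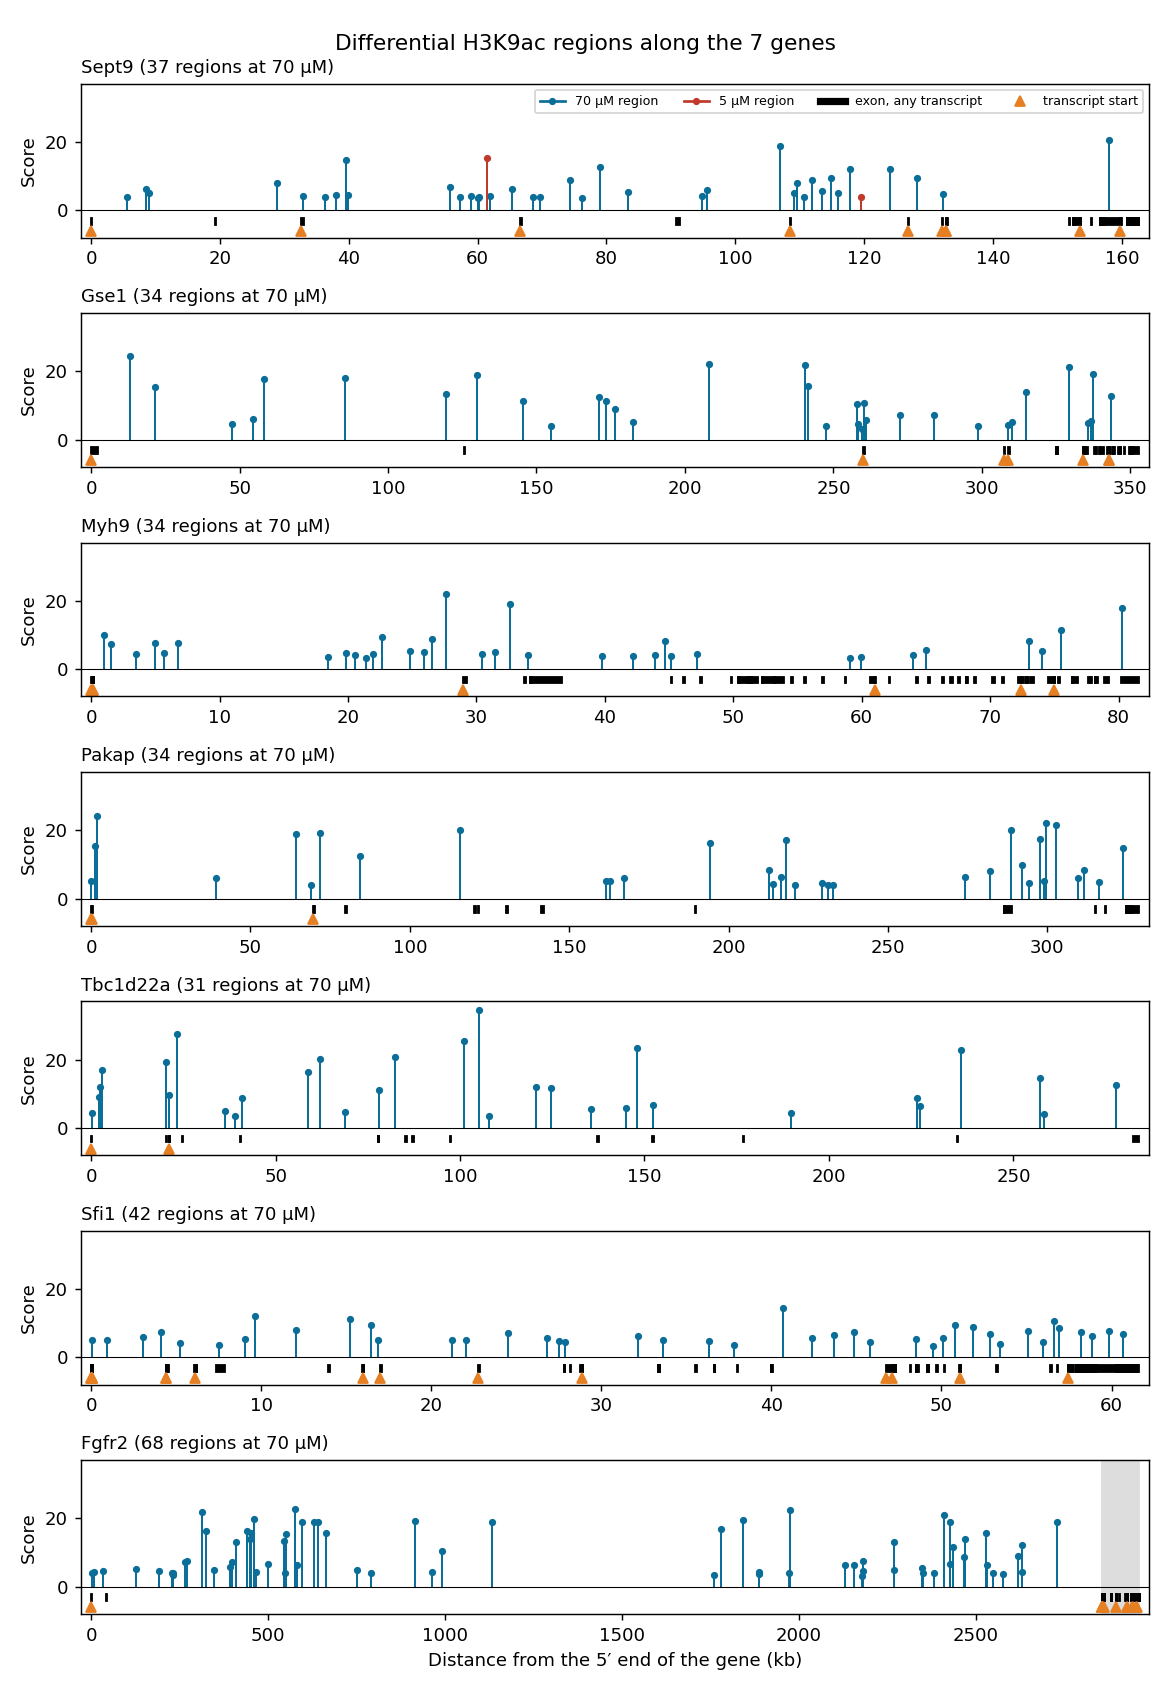
Positions of the differential regions along the 7 genes, each read from its 5′ end (horizontal axes, kb). Each stem is 1 region at its midpoint with its deposited score as height (no unit), blue for 70 µM and red for 5 µM; black bars are exons of any transcript, orange triangles transcript starts, and the grey band in Fgfr2 is the 103.8 kb that hold its other 26 transcripts, where no region lies.

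Among the cytoskeletal genes, Sept9 encodes a septin, a GTP-binding protein that assembles into filaments at the cell cortex and the division site. The gene (ENSMUSG00000059248.13) lies at chr11:117199661-117362325 on the plus strand and has 10 transcripts with 10 different starts. Its 37 regions at 70 µM were 122 to 533 bp wide, median 189, and had scores of 3.56 to 20.58, median 5.15. In the longest coding transcript, Sept9-202 with 12 exons, 19 regions lay in intron 2 (71.5 kb), 14 in intron 3 (60.4 kb), 3 in intron 1 and 1 in intron 10, and the short introns 4 to 9 held none. The gap from 132.6 to 158.0 kb after the 5′ end, which takes in those short introns, was the widest without a region. At internal starts lay 3 regions, at 32.8, 109.1 and 132.3 kb, and none at the 5′-most start, from which the nearest region was 5.63 kb away. The largest group of regions no more than 1 kb apart held 4 regions in 2962 bp at chr11:117308644-117311605, beside the internal start near 109 kb.

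Sept9 was the only one of the 7 genes with regions assigned to 5 µM. At least 1 such region lay in 243 of the 21938 protein-coding genes (1.11%). Both are intronic, and both lie between 70 µM regions.
Sept9, 5 µM, intron 2, chr11:117260984-117261120: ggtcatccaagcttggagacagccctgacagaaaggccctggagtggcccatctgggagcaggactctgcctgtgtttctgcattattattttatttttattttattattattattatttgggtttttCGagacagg
Sept9, 5 µM, intron 3, chr11:117319048-117319200: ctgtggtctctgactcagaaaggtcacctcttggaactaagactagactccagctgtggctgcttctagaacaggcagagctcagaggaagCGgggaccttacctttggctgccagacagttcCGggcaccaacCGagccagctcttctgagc
In these plus-strand sequences capitals again mark CpG sites. The first had a score of 15.14 and lay 1009 bp after one 70 µM region and 411 bp before the next, inside an antisense transcript gene, Gm16045, that also holds 4 of the 70 µM regions. The second had a score of 3.96 and lay 1499 and 4350 bp from its neighbours. Calls of opposite direction thus stood 411 bp apart in 1 intron. Of 12 other septin genes, 10 had at least 1 region at 70 µM, at most 4 (Sept8 and Sept11), 8 had one at a start, and none had a 5 µM region, where 51.9% of all protein-coding genes had a 70 µM region and 39.2% had one at a start.

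Myh9 encodes the heavy chain of non-muscle myosin IIA, a motor protein of the contractile actin network. The gene (ENSMUSG00000022443.17, chr15:77760587-77842175, minus strand) is 81.6 kb long and its 34 regions covered 8.62% of it. Widths were 122 to 456 bp, median 178, and scores 3.27 to 22.06, median 4.87, with 12 of 34 at or above the median score of the whole list, 6.64. Most regions lay in the first 3 introns: in Myh9-201, which has 41 exons, 16 lay in intron 1 (28.7 kb), 4 in intron 2 and 5 in intron 3, and the other 37 introns held 8. From the 5′ end, the 5 equal parts of the gene held 6, 13, 7, 4 and 4. Neighbouring regions were a median of 976 bp apart, and 17 of the 33 gaps were no more than 1 kb. Groups formed in this way took in 26 of the 34 regions, and the largest held 5 regions in 2920 bp of intron 1 at chr15:77819441-77822360. Only 1 region lay at the 5′-most start and 3 at internal starts, though 8 starts are annotated. Among 12 other class II myosin heavy chain genes, 6 had a region, near the share of all protein-coding genes (51.9%). Myh10, which encodes non-muscle myosin IIB, led with 11 and Myh14, for IIC, had 3. Myh1, Myh2, Myh11 and Myh13 had 1 each, and Myh3, Myh4, Myh6, Myh7, Myh7b and Myh8 had 0. Length differed as well, 125 kb for Myh10 and 22.4 to 31.5 kb for the genes with 0. Myh11, Myh14 and Myh13, with 1, 3 and 1 regions, were 96.8, 65.0 and 49.9 kb long. Myh1 and Myh2, with 1 each, were 24.5 and 26.5 kb long. The part of length in these counts was not tested.

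Sfi1 encodes a protein of the centrosome with repeats that bind centrins, small calcium-binding proteins. The gene (ENSMUSG00000023764.18, chr11:3131850-3193463, minus strand) had the most regions for its length of all protein-coding genes of 50 kb or more. Its 42 regions were 122 to 749 bp wide with a median of 281.5, above the medians of the other 6 genes (157.5 to 192) and of the whole list (170), and they covered 21.04% of the gene. Scores were modest, 3.48 to 14.44 with a median of 5.86. Regions followed each other along the whole gene, a median of 741 bp apart and never more than 4.16 kb, and its 5 equal parts from the 5′ end held 9, 6, 6, 7 and 14. Within Sfi1-201, with 32 exons, 22 of 31 introns held at least 1 and intron 14 the most, 5. The largest group in any of the 7 genes, 7 regions in 5312 bp, lay at chr11:3139937-3145248. Of the 42, 16 were at an annotated start, 14 of them at internal ones, but Sfi1 has 18 starts and the windows of 1 kb either side of them take up 29.5% of the gene. Among 4 centrin genes, Cetn3 held 2 regions inside its span and the others 0, where 51.9% of all protein-coding genes had at least 1. Within 1 kb of a start, however, Cetn2, Cetn3 and Cetn4 had a region, 3 of the 4, where 39.2% of all protein-coding genes did.

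A near-identical copy of most of Sfi1 stands outside the assembled chromosomes. A single unplaced contig of 114 kb aligned to 83.7% of the gene, in 3 stretches that span 51562 of its bases. Where both had a base, identity was 98.6%, with insertions and deletions left out. Each stretch also held 30 to 650 bases found only in the gene and 172 to 978 found only in the contig. No other scaffold had more than 3267 positions in common with Sfi1. Of the 42 regions, 35 overlapped an aligned stretch. At least 50% of the 32-base words were also on such a scaffold for 34 of 42 Sfi1 regions (81.0%), for 1 of 31 in Tbc1d22a and for none in the other 5 genes, and for 852 of all 45495 regions (1.87%). In the whole list, 45 regions had at least 50% of their words on a scaffold but under 50% repeated on chromosomes, and 34 of those 45 were in Sfi1. Within the gene itself, 2.39% of the words of Sfi1 recurred.

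The copy ends near the 5′ end of the gene model used here. The RefSeq span of Sfi1 reaches further in that direction, to chr11:3203347, and held 46 regions in 71.5 kb. The 9.5 kb at the 5′ end held 7 regions, 73.7 per 100 kb, with 0 to 3.37% of words on scaffolds. The other 52.1 kb held 35 regions, 67.2 per 100 kb, with 37.2 to 100% of words on scaffolds. Of the 7 regions at the 5′ end, 5 also lie in Drg1, the gene of a GTP-binding protein whose model overlaps this end. These shares count scaffolds only, and copies missing from the assembly would not show. On the chromosomes, 27 of the 42 regions had a word found more than once. How reads that match both places were assigned could not be learned from the labels. The part of the copy in the count of Sfi1 was not tested.

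**Figure D3:**
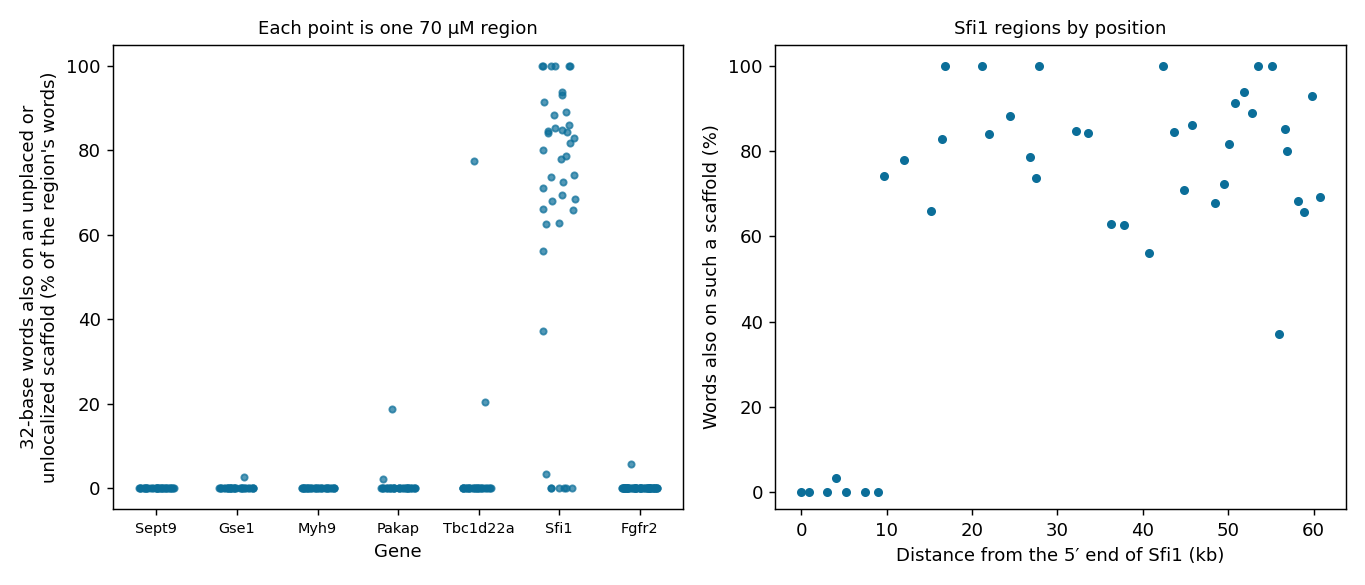
Share of each region's 32-base words that also occur on an unplaced or unlocalized scaffold (vertical axes, %). Left, all 70 µM regions of the 7 genes, 1 point each with horizontal scatter added only to separate points; right, the 42 Sfi1 regions by distance from the 5′ end (kb), where the first 7 lie at 0 to 3.37% and the other 35 at 37.2 to 100%.

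Of the genes for signalling and membrane traffic, Pakap (ENSMUSG00000089945.13, chr4:57568179-57896982, plus strand) is a model that joins Palm2, for a paralemmin, which is a lipid-anchored membrane protein, with Akap2, for an A-kinase anchoring protein, which tethers protein kinase A. All its 34 regions fell in one or the other: 9 in the part shared with Palm2 and 25 in Akap2. Between them lay the widest gap, 115.8 to 161.4 kb from the 5′ end. Scores ran from 3.89 to 24.06 with a median of 7.27, and widths from 120 to 431 bp with a median of 175. Within 2 kb of the 5′ end stood 3 regions, among them the one with the highest score, and the last of 5 equal parts of the gene held 13. In Pakap-203, 11 regions lay in intron 5 (96.9 kb) and 8 in intron 6 (26.0 kb), and 6 lay upstream of that transcript. The 5′-most start of this model and an internal start had 1 region each. The RefSeq span of Pakap begins further upstream, at chr4:57434475, and held 36 regions in 462.5 kb. Of 14 other A-kinase anchoring protein genes 12 had a region, at most 6 (Akap7 and Akap9), and of 3 other paralemmin genes 2 had, with 4 in Palm, where 51.9% of all protein-coding genes and 75.8% of those of 50 kb or more had one.

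Tbc1d22a encodes a protein with a TBC domain, the domain of GTPase-activating proteins for Rab GTPases that steer vesicle traffic. The gene (ENSMUSG00000051864.10, chr15:86214459-86498503, plus strand) has 2 transcripts, and its 31 regions, all intronic, had the highest median score of the 7 genes, 11.23, in a range of 3.46 to 34.42. They were 125 to 302 bp wide, median 192. In Tbc1d22a-201, with 13 exons, introns 4 and 8 held 6 each, intron 1 held 5 and intron 12 held 4, and 8 of the 12 introns held fewer. Of 5 equal parts of the gene the first had 10 regions and the fourth 3, and the widest gap was 37.1 kb. Within 3 kb of the 5′ end stood 4, with scores of 4.51, 9.17, 12.05 and 17.00, and 2 more lay beside the internal start at about 21 kb, with 19.28 and 9.69. The TBC genes compared had regions in 8 of 9, led by Tbc1d16 with 12, and its closest relative Tbc1d22b had 8, beside the same 51.9% of all protein-coding genes and 75.8% of those of 50 kb or more.

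Fgfr2 encodes a receptor tyrosine kinase for fibroblast growth factors, and its count came from the extent of 1 transcript model. The annotated gene (ENSMUSG00000030849.18, chr7:130162451-133123350, minus strand) has 27 transcripts, of which 26 lie within the 103.8 kb at chr7:130162451-130266263. Those 103.8 kb held no region of either condition. All 68 regions lay in the extension of the single transcript Fgfr2-217, whose 7 exons reach over 2.96 Mb, 65 of them in its intron 2 of 2909 kb and 3 in its intron 1. The nearest 70 µM region to the 26 transcripts was 126.9 kb upstream of them on one side and 12.1 kb downstream on the other. The RefSeq span of the gene, 104.4 kb, held 0 as well. Nothing in the list therefore marks the body or the usual starts of the receptor gene as different between the choline levels, which at this unknown depth does not show that they were alike.

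The 68 regions belong to a stretch of chromosome 7 with 30 other protein-coding genes. Of the 68, 45 lay inside 14 of those genes, 23 lay in none of them, and 14 were at a start of one of them. Tacc2, for a centrosome-associated coiled-coil protein, held 9, Lhpp and Fam53b 6 each, and Ctbp2, for a transcriptional corepressor, Htra1, for a serine protease, and Ate1, for an arginyltransferase, 4 each. Scores in the 68 ran from 3.32 to 22.84 with a median of 6.98, and widths from 120 to 349 bp with a median of 157.5. Exact scores of 19.01 and 4.01, the 2 commonest in the list (2552 and 1021 regions), were carried by 4 and 5 of them. The middle of 5 equal parts of the span had 1 region, and 628 kb passed without any. At 2.30 per 100 kb the density was 1.34 times that of chromosome 7. Of the other FGF receptor genes Fgfr1 had 6 regions and Fgfrl1 3, both with one at a start, and Fgfr3 and Fgfr4 had 0, where 51.9% of all protein-coding genes had at least 1.

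Gse1, the chromatin gene of the group, encodes a protein found with the histone demethylase LSD1 and histone deacetylases in the CoREST complex. The gene (ENSMUSG00000031822.20, chr8:120228456-120581390, plus strand) had 34 regions with scores of 3.23 to 24.38 and a median of 10.44, and 21 of the 34 were at or above the median score of the list. Widths ran from 121 to 410 bp with a median of 169. In Gse1-206, with 3 exons, 22 regions lay in intron 2 (199 kb) and 7 in intron 1 (123 kb), and 5 downstream of it. The first was 13.1 kb from the 5′ end, so the 5′-most start had none, while 5 lay at internal starts. Of these, 3 formed a group of 1527 bp at chr8:120487997-120489523 around the start near 260 kb, with scores of 3.23, 10.59 and 5.69 and a G and C content of 75.4%, 59.1% and 67.5%. A further region at the internal start near 308.8 kb had 76.6% G and C and 21 CpG sites in 128 bp. Among 11 genes for partners of Gse1 in that complex, 10 had a 70 µM region, where 51.9% of protein-coding genes did, and 10 had one at a start, where 39.2% did. Phf21a had the most, 5, and Hdac2 had none.

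Spacing differed among the 7 genes. Pooled over them, neighbouring regions within a gene were a median of 2.94 kb apart, against 12.2 kb for all neighbouring 70 µM regions, a difference the choice of genes by number brings with it, but the median in Fgfr2 was 24.3 kb. Of the 273 gaps, 69 were no more than 1 kb (25.3%, exact 95% interval 20.2 to 30.9), beside 14.995% in the list. The choice of genes by number can itself raise this share, so the interval is no test against the list. Intervals here cover counting over regions only, and regions of 1 gene share their source. The share of gaps of no more than 1 kb was 53.7% in Sfi1, 51.5% in Myh9, 27.8% in Sept9 and 18.2% in Gse1, and below that of the list in Tbc1d22a (13.3%), Fgfr2 (10.4%) and Pakap (9.09%). When regions no more than 1 kb apart were merged, Sfi1 went from 42 to 20 and Myh9 from 34 to 17, while Pakap kept 31 groups and Fgfr2 61. The counts of Sfi1 and Myh9 thus include many calls no more than 1 kb from a neighbour. The list does not tell whether such calls belong to 1 stretch of H3K9ac or to several.

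**Figure D4:**
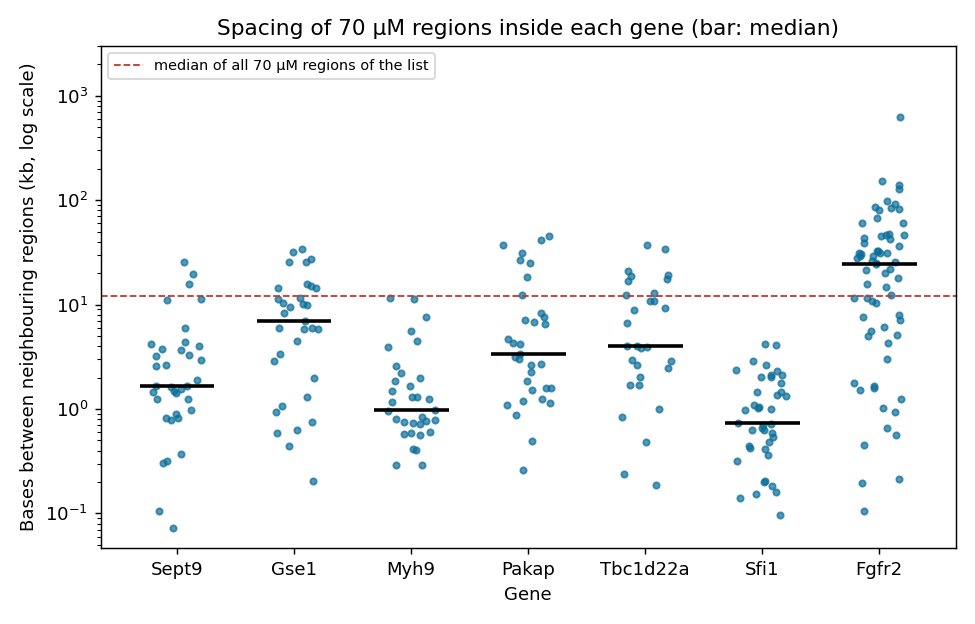
Bases between neighbouring 70 µM regions within each of the 7 genes (vertical axis, kb, log scale), 1 point per gap with horizontal scatter added only to separate points. Black bars are medians, 0.741 kb in Sfi1 and 24.3 kb in Fgfr2, and the dashed line is the median of the whole list, 12.2 kb.

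By midpoint, 267 of the 280 regions lay in introns (95.4%, exact 95% interval 92.2 to 97.5), 12 in exons and 1 just upstream. Exons take up 0.349% (Fgfr2) to 15.8% (Myh9) of these genes, so most of each span is intron. Coding exons were touched by 10 regions in Sfi1, 5 in Myh9, 3 in Tbc1d22a, 1 in Pakap and none in the other 3. Within 1 kb of an annotated start of the same gene lay 33 regions (11.8%, interval 8.25 to 16.2), of which 5 were at the 5′-most start. Of all 70 µM regions 32.3% lay within 1 kb of a start of any gene, which is a wider count than starts of the same gene. For example, 14 regions of Fgfr2 lay at a start of another protein-coding gene and are not among the 33. The choice of genes by number of regions inside them can itself lower the share at starts. No depletion from starts is therefore read from these shares. Without Sfi1 the share at a start of the same gene was 7.14% in the 6 other genes. Only 4 of the 7 genes (Myh9, Pakap, Tbc1d22a and Sfi1) had a region at the 5′-most start at all.

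The regions were at least as rich in G and C as the gene they lie in. Median G and C content was 57.8% in Gse1, 55.6% in Sept9, 53.6% in Tbc1d22a, 53.2% in Myh9, 51.6% in Fgfr2, 49.4% in Pakap and 46.8% in Sfi1, against spans of 54.5%, 53.0%, 48.4%, 52.1%, 45.8%, 45.1% and 46.2% in the same order. Over all 280 it was 53.3%, and in the whole list 50%. CpG sites were fewer, 17.5 per kb over the 280 and 24.2 per kb in the list, from 10.0 in Sfi1 to 29.9 in Gse1. Bases that the reference marks as interspersed or low-complexity repeats made up 15.1% of the region bases and 19.1% in the list, and in each of the 7 genes the regions had a lower share than the span, 22.96% against 34.8% in Sfi1 and 22.2% against 28.0% in Pakap. A 32-base word found more than once on the chromosomes, in the same gene or elsewhere, occurred in 49 of the 280 (17.5%). In the list the share was 19.4%, and 27 of the 49 were in Sfi1. Without Fgfr2 the share was 20.3%, above that of the list. In the 6 genes other than Sfi1 it was 22 of 238 (9.24%).

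Motifs of 3 factor families were counted on both strands in the central 120 bp of each region. The AP-1 motif TGANTCA, where N is any base, occurred in 14 of the 280 (5.0%) and in 3.33% of the list. By gene it occurred in 4 of 31 in Tbc1d22a, 3 each in Sept9, Gse1 and Sfi1, 1 of 68 in Fgfr2 and 0 in Myh9 and Pakap. The TEAD motif GGAATG occurred in 6.07% and 6.42%, and the RUNX motif TGTGGT in 9.64% and 8.43%. Matches of different motifs were counted apart and may overlap. They are matches of letters and do not show that a factor was bound.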

How the data were processed

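The submitters' processing notes name CASAVA 1.8, Bowtie 1.0.0, MACS2 without a version and the build mm10. By the account in the series' design text, MACS2 called H3K9ac peaks relative to input DNA, and its bdgdiff function then called the differences between the choline levels. The score of each region was set by the authors in that last step and deposited without a column name or unit. Neither the scaling between libraries nor the placement of reads with several matches is stated in the labels. Depth per library is unknown.

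The 7 genes and the lists of related genes were chosen with earlier results of these data known, so no test was made. Named were the 7 genes, all other genes with as many regions, the 5 protein-coding genes next below, and in each list the genes with the highest number. A region was inside a gene when it overlapped the span of the GENCODE M21 model by at least 1 bp, and at a start when it overlapped 1000 bp either side of a transcript start. The part of a gene was taken by midpoint. RefSeq GRCm38.p6 sequence, the same build, gave base composition, repeat masking and 32-base words. The words of each region, on either strand, were counted on 21 chromosomes and 44 unplaced or unlocalized scaffolds. The contig sharing most words with Sfi1 was aligned to it with minimap2 2.31. Python 3.11.15 with pandas 2.3.3 and scipy 1.17.1 was used, and the counting steps were tested on simulated regions. Shares have exact (Clopper-Pearson) 95% binomial intervals. Other windows, word lengths, spans and sets of regions were tried. Some sequence of these genes is not reported here.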

Additional observations from a re-analysis of the deposited data

How the results depend on the processing

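Settings were judged by whether a value moved by more than counting over regions allows, or a count by more than 1.5 times. Of 90 values over the 7 genes under another setting, 69 stayed within that range and 21 moved. The share in introns and the G and C content did not move. The share of bases in masked repeats also stayed, but it was judged as if it were a share of the 280 regions. It ran from 12.8% to 16.1%, beside 15.1% in the main setting. Keeping only regions at or above the median score of the list left 136 of the 280. Their density was 3.21 per 100 kb instead of 6.62, and their median gap 10780 bp instead of 2940 bp, since fewer regions were used. The median score of 6.40 became 12.8 because this setting itself removes the low scores. Without Sfi1 the share at a start was 7.14%, the median gap 4219.5 bp and the share with a repeated word 9.24%. The share at a start was 6.07% with 500 bp either side, 26.4% with 2500 bp, and 6.07% with starts of protein-coding transcripts only. The share with a repeated word was 8.57% with 50-base words and 2.14% when at least 50% of the words had to be repeated. Other settings were added after the data were seen. The density became 14.3 per 100 kb and the gap 1983 bp with RefSeq spans. It became 15.4 per 100 kb and the gap 2002 bp with the span of Fgfr2 taken without its longest transcript, which holds all 68 of its regions, and 16.7 and 2002 bp without Fgfr2. Without regions that overlap another protein-coding gene, 162 regions, a density of 3.83 per 100 kb and a gap of 1714 bp remained, and Gse1 and Pakap had 0. The share with a repeated word, 17.5% and below the 19.4% of the list, was above it with RefSeq spans (19.7%), without Fgfr2 or its longest transcript (20.3%) and without regions in other protein-coding genes (22.2%). No paired analysis was possible because no column of the list belongs to a single library, and for the same reason no library could be left out. Unknown depth limits every absence reported.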
